A study of Mus musculus with 6 samples.

Results

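Voltage-gated potassium (Kv) channel genes, the genes of their cytoplasmic partner subunits and the HCN channel genes were followed in RNA pulled down from mouse retina. The members were the genes whose symbol is Kcna, Kcnab, Kcnb, Kcnc, Kcnd, Kcnf, Kcng, Kcnh, Kcnq, Kcns, Kcnv or Kcnip followed by a number, or Hcn followed by a number, and which had 10 or more reads in 3 or more of the 6 libraries. Of 51 matching genes 44 met this rule, among 55335 genes in the files, and all 44 were tested. The other 7 (Kcna7, Kcna10, Kcnh3, Kcnh4, Kcnv1, Kcng3 and Kcnq1) had at most 25 reads in any library.

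The study compared naive mice with a glaucoma model called SOHU, a name that stands for ocular hypertension under-detected, induced by silicone oil in the anterior chamber of the eye. All mice were wild type C57BL/6 aged 10 weeks, and the SOHU retinas were taken 1 week after the oil. The labelled cell type is the retinal ganglion cell, the output neuron whose axons form the optic nerve. Each group had 3 libraries of RNA recovered from retina with an antibody to the HA peptide tag, and the labels name neither the tagged protein nor the cells that carried it. The treatment text that mentions the oil is the same for all samples, so the naive group rests on its condition label. Nothing in the labels says that replicates were different animals, and p-values therefore measure only how these samples vary, which may be technical variation.

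Libraries held 21691354 to 26824919 counted reads. Levels are CPM, read counts scaled to library size with TMM factors, and differences are log2 fold changes, SOHU minus naive, from edgeR's quasi-likelihood test with their standard errors (SE). The threshold was an adjusted p (Benjamini-Hochberg) under 0.05 over all 17687 genes tested. The 18 ganglion cell markers made up 0.457 to 0.731% of the counts in naive and 0.218 to 0.320% in SOHU libraries, and 17 of them fell, with a median of -1.10. The 16 Müller glia and astrocyte markers made up 1.44 to 2.01% and 2.96 to 5.31%, and 11 of 15 tested rose, with a median of 1.17. No gene of either list was at 0 in any library. In bulk RNA, fewer cells of a type and less RNA per cell cannot be told apart. The part of these shifts in the results on channels was not tested, and values scaled to the ganglion cell markers are given at the end.

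Kv channels open when a membrane depolarises and let potassium leave the cell, which ends the action potential and sets how fast a neuron can fire. Each channel is an assembly of pore-forming alpha subunits, and the alpha subunits Kv5, Kv6, Kv8 and Kv9 make no channel alone but alter Kv2 channels. KChIP proteins bind calcium and Kv4 subunits, and Kv beta proteins bind Kv1 subunits. HCN channels open on hyperpolarisation, are modulated by cyclic nucleotides and carry a depolarising current. In ganglion cells, potassium and sodium channels of the soma and axon initial segment shape the spike train that is sent to the brain.

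Transcripts of the family were lower in SOHU relative to all genes with TMM scaling. Scaling to the ganglion cell markers moved all genes up together, so it could hardly alter the members' place relative to all genes. On that scale the members' median log2 fold change was 0.16, against 1.08 for all genes. Of the 44 members 0 were lower and 4 higher, where 2 of all 17687 genes tested were lower and 12253 higher. With TMM scaling 17 of the 44 members fell (38.6%, where 5.93% of all genes tested were lower and 13.9% passed in either direction). None rose (0, where 8.02% of all genes were higher). A single member was higher at an unadjusted p under 0.05 in edgeR, and limma-voom and DESeq2 called 0 and 0 higher. The members' median log2 fold change was -0.84, against 0.014 for all genes, and 42 members were below 0. The groups' CPM did not overlap in 36 members, all with SOHU lower; over all genes 39% did not overlap, 19.7% with SOHU lower and 19.3% with SOHU higher. The exact permutation test (two-sided) gave p = 0.1 for each of the 36, the smallest that 3 libraries against 3 allow. Any gene whose groups do not overlap must give this p, so it adds nothing to the count of 36. The groups overlapped in 8 members, among them Kcna4, Kcnb2, Kcnh6, Kcnh8, Kcnq5, Kcns1 and Kcnv2.

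The SOHU libraries were not alike. The members together made up 0.249, 0.219 and 0.227% of the counts in naive replicates 1 to 3 and 0.108, 0.123 and 0.179% in SOHU replicates 1 to 3. SOHU replicate 3 was the highest of its group in 36 members, and naive replicate 1 in 30. Against the naive mean, the median member stood at -1.15, -1.001 and -0.32 on the log2 scale in SOHU replicates 1 to 3. The ganglion cell marker share was 0.731, 0.457 and 0.534% in naive and 0.221, 0.218 and 0.320% in SOHU replicates 1 to 3, and that of the amacrine and horizontal cell markers 0.565, 0.524 and 0.522% and 0.243, 0.296 and 0.367%. Both shares were highest in naive replicate 1 and in SOHU replicate 3 within their groups, as the members' share was, and their part in it was not tested.

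**Figure D1:**
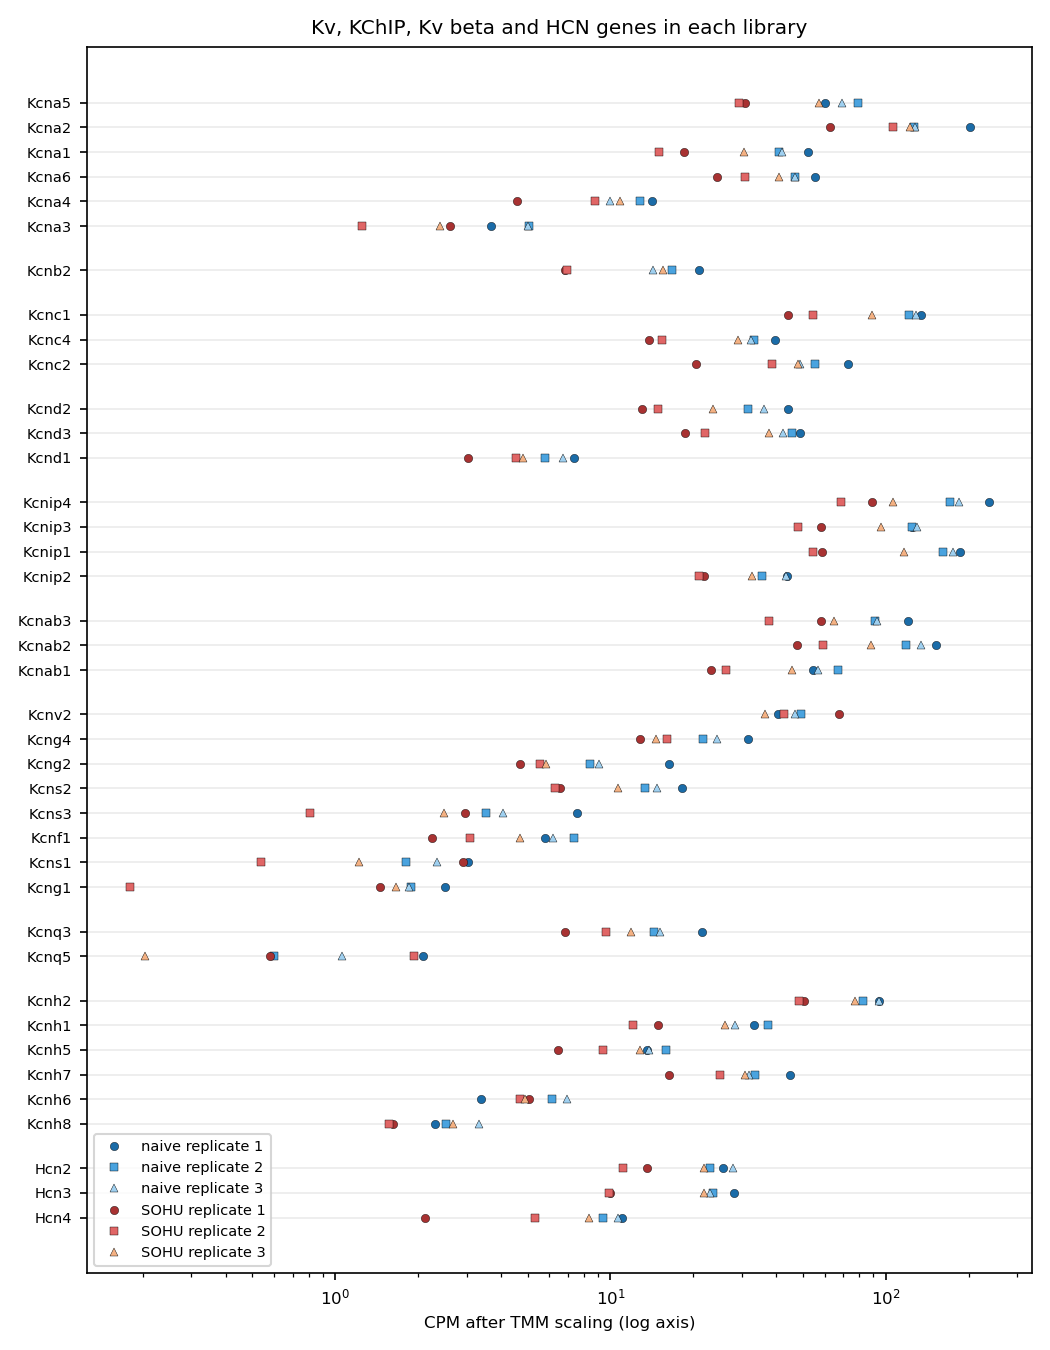
CPM (log axis) of 39 of the 44 members, grouped by subfamily, with 1 point per library coloured by group. SOHU replicate 3 was the highest SOHU library in 36 of the 44 members, and Kcnv2 and Kcnh6 are among those in which the groups overlap.

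Calls on single members depended on single libraries. Leaving out naive replicates 1 to 3 in turn left 0, 5 and 0 members past the threshold in edgeR, and leaving out SOHU replicates 1 to 3 left 8, 1 and 32. In the omissions of naive replicates 1 and 3 that gave 0, 27 and 33 members had an unadjusted p under 0.05, limma-voom called 0 and 0, and DESeq2 called 15 and 20. Over all genes edgeR also called 0 in both, and 887 without naive replicate 2. Without SOHU replicates 1 to 3 it called 2017, 336 and 3896 of all genes. All members called in these edgeR omissions were lower. They were 11.4% of members without naive replicate 2 and 18.2, 2.27 and 72.7% without SOHU replicates 1 to 3. In the same order 1.44, 4.91, 0.254 and 10.2% of all genes tested were lower. Kcnip4 was the member left when SOHU replicate 2 was omitted. The members' median log2 fold change lay between -1.14 and -0.67 over the 6 omissions in edgeR. The calls on single genes given next are those of all 6 libraries.

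**Figure D2:**
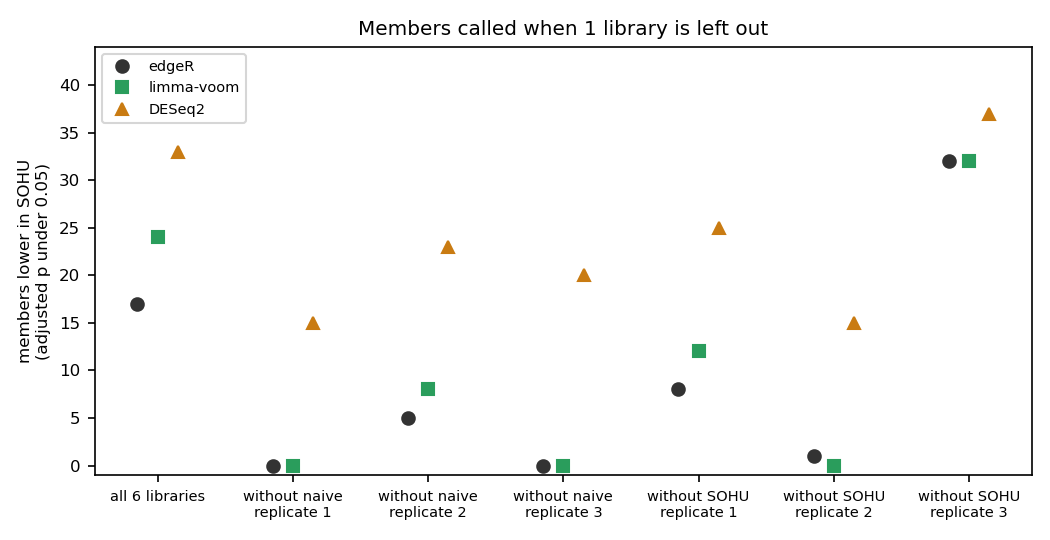
Number of the 44 members called lower in SOHU with all 6 libraries and with each library left out, in edgeR, limma-voom and DESeq2. The tools called 17, 24 and 33 with all libraries and 0, 0 and 15 when naive replicate 1 was left out.

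Levels of different genes were compared per kb of exon. High members were Kcnip4 (39.4 CPM per kb, mean of 6 libraries), Kcnip3 (27.3), Kcnab3 (27.1), Kcnip1 (19.9), Kcna5 (19.00) and Kcnh2 (15.4), and the lowest was Kcnq5 (0.140). The first 4 of all members were genes of partner subunits, not of pores. The KChIP genes summed to 142, 117 and 127 CPM per kb in naive and 56.3, 46.8 and 83.6 in SOHU replicates 1 to 3. The Kv4 genes, whose proteins they bind, summed to 15.1, 11.99 and 12.7 in naive and 5.04, 6.04 and 9.42 in SOHU replicates 1 to 3. Both sums were lower in every SOHU library than in any naive one.

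**Figure D3:**
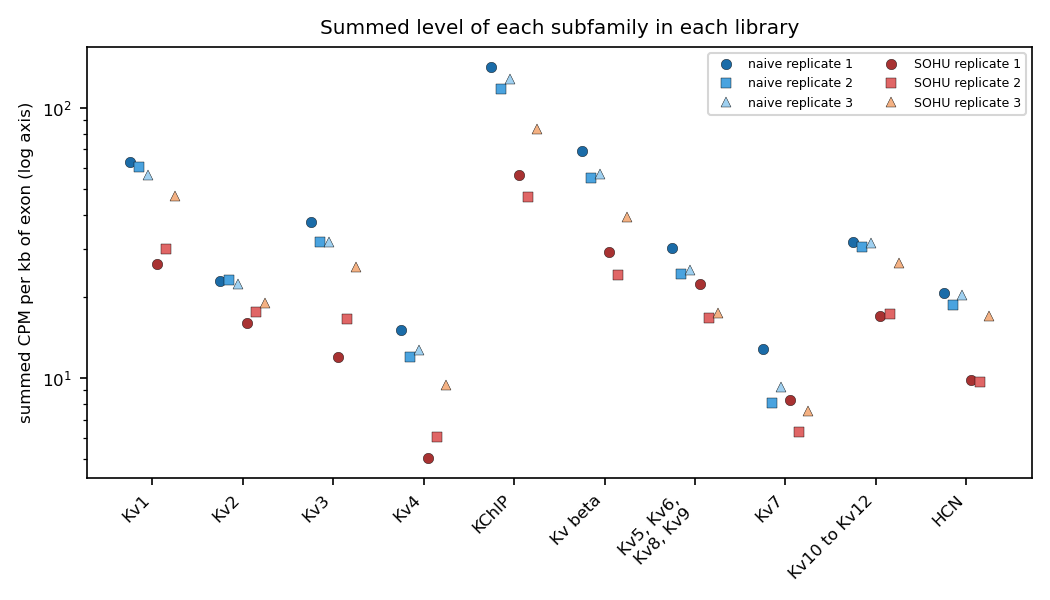
Summed level of each subfamily's members in CPM per kb of exon (log axis), 1 point per library. All SOHU points lie below all naive points except in Kv7, where SOHU replicate 1 (8.28) was above naive replicate 2 (8.05).

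All 4 KChIP genes fell, with no overlap between the groups. Kcnip4 (ENSMUSG00000029088.16, mm10 chromosome 5, 48389502 to 49524907, minus strand) had 237, 170.4 and 185 CPM in naive and 89.04, 68.9 and 106 in SOHU libraries. Every SOHU library lay below every naive one, and the mean went from 197 ± 35.1 to 88.1 ± 18.7 CPM (SD, n = 3 each). Kcnip4 fell 2.24-fold (-1.16, SE 0.19, edgeR adjusted p = 0.0117), with the smallest adjusted p of the members. Kcnip1 had 186, 161 and 176 CPM in naive and 58.8, 54.4 and 116 in SOHU libraries. It fell 2.28-fold (-1.19, SE 0.26, edgeR adjusted p = 0.0212), and SOHU replicate 3 was nearest to the naive range. Kcnip3, whose product is also known as the calcium-dependent transcriptional repressor DREAM, had 124, 124 and 129.6 CPM in naive and 58.4, 47.9 and 95.96 in SOHU libraries. Its naive libraries were close together (SD 3.06), and it fell 1.87-fold (edgeR adjusted p = 0.0318). Kcnip2, known for its role with Kv4 channels in the heart, had 43.6, 35.4 and 43.3 CPM in naive and 21.8, 20.9 and 32.7 in SOHU libraries. It fell 1.62-fold (edgeR adjusted p = 0.0449). Kcnip4 made up 40.04 to 46.1% of the KChIP sum per kb in naive and 35.01 to 43.6% in SOHU libraries. Leaving out each naive replicate left 0, 1 and 0 of the 4 genes past the threshold in edgeR (all 4 at an unadjusted p under 0.05), and each SOHU replicate 1, 1 and 4. Exons of Kcnip4 share 168 bases (4.63% of its exon length) with 5730480H06Rik on the opposite strand. All reads of that gene equal 11.6% of those of Kcnip4. How many reads came from the shared bases is not known, so the Kcnip4 counts are uncertain to an unknown extent.

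Kv4 alpha subunits carry the fast inactivating A-type current of soma and dendrites, and 1 of their 3 genes passed. Kcnd2 (Kv4.2; ENSMUSG00000060882.5, mm10 chromosome 6, 21215503 to 21729805, plus strand) had 44.2, 31.6 and 36.3 CPM in naive and 13.05, 14.8 and 23.5 in SOHU libraries. Every SOHU value was below every naive value, and the gene fell 2.18-fold (-1.12, SE 0.24, edgeR adjusted p = 0.0184). Kcnd3 (Kv4.3) went from 45.6 ± 3.29 to 26.2 ± 10.2 CPM and Kcnd1 (Kv4.1) from 6.64 ± 0.799 to 4.12 ± 0.9503 (SD, n = 3 each), with edgeR adjusted p-values of 0.0552 and 0.0916. Neither overlapped between the groups. Omission of each naive replicate left 0, 1 and 0 Kv4 genes past the threshold in edgeR (2, 3 and 2 at an unadjusted p under 0.05), and each SOHU replicate 1, 0 and 2 (3, 3 and 3).

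All 3 Kv beta genes fell. Their products resemble aldo-keto reductases and help Kv1 channels reach the axon. Kcnab3 (ENSMUSG00000018470.8, mm10 chromosome 11, 69326258 to 69333042, plus strand), the highest of them per kb, had 121, 91.7 and 93.03 CPM in naive and 58.04, 37.7 and 65.03 in SOHU libraries. The groups were apart, and it fell 1.90-fold (-0.92, SE 0.21, edgeR adjusted p = 0.0228). Kcnab2 had 153, 118 and 134 CPM in naive and 47.4, 59.1 and 88.2 in SOHU libraries. It fell 2.08-fold without overlap (-1.05, SE 0.22, edgeR adjusted p = 0.0179). Kcnab1 had 54.6, 66.8 and 56.9 CPM in naive and 23.1, 26.2 and 45.5 in SOHU libraries. SOHU replicate 3 was closest to the naive range, and the fall was 1.88-fold (edgeR adjusted p = 0.0365). Leaving out each naive replicate left 0, 1 and 0 of the 3 past the threshold in edgeR (3, 3 and 3 at an unadjusted p under 0.05), and each SOHU replicate 2, 0 and 3 (3, 3 and 3).

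Of the 6 Kv1 genes, 2 fell. Kv1 channels gather at the axon initial segment and beside the nodes of Ranvier, where they limit repetitive firing. Kcna1 (Kv1.1; ENSMUSG00000047976.4, mm10 chromosome 6, 126640397 to 126646384, minus strand) had 52.1, 40.9 and 41.9 CPM in naive and 18.5, 15.02 and 30.5 in SOHU libraries. Its SOHU values all lay below the naive ones, a 2.10-fold fall (-1.07, SE 0.25, edgeR adjusted p = 0.0243). Kcna3 (Kv1.3), best known from lymphocytes and microglia but also made by neurons, had 3.70, 5.07 and 4.997 CPM in naive and 2.62, 1.26 and 2.40 in SOHU libraries. It fell 2.19-fold without overlap (-1.13, SE 0.32, edgeR adjusted p = 0.0467). The microglia and leukocyte marker list went the other way, with 6 of 15 genes higher and shares of 0.00266 to 0.00637% of the counts in naive and 0.00767 to 0.0176% in SOHU libraries.

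The other 4 Kv1 genes missed the threshold. Kcna5 (Kv1.5; ENSMUSG00000045534.4, mm10 chromosome 6, 126532551 to 126535412, minus strand), the highest of them per kb, had 60.1, 79.2 and 69.6 CPM in naive and 30.7, 29.4 and 57.2 in SOHU libraries. The groups did not overlap (-0.83, SE 0.25, edgeR adjusted p = 0.0539). Kcna2 (Kv1.2), the partner of Kv1.1 in axons, had the highest CPM of the subfamily, with 202, 127 and 128 CPM in naive and 62.5, 106 and 123 in SOHU libraries. Naive replicate 1 stood apart from the other naive libraries, and the smallest naive and largest SOHU values were close (-0.65, SE 0.26, edgeR adjusted p = 0.123). Kcna6 (-0.64) and Kcna4 (-0.61) gave edgeR adjusted p-values of 0.0562 and 0.199, and Kcna4 overlapped between the groups. Kcna5, Kcna1 and Kcna6 lie together on chromosome 6 (126532551 to 126740674), and Kcna3 and Kcna2 on chromosome 3 (107036169 to 107115005). In edgeR, omitting each naive replicate left 0, 0 and 0 Kv1 genes past the threshold (4, 5 and 5 at an unadjusted p under 0.05), and each SOHU replicate 1, 0 and 4 (4, 4 and 6). With all libraries limma-voom called 4 and DESeq2 5 of the 6.

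Kv3 channels close quickly after a spike and allow sustained fast firing. Kcnc1 (Kv3.1; ENSMUSG00000058975.7, mm10 chromosome 7, 46396497 to 46438704, plus strand), the highest of them per kb, had 134, 121 and 129 CPM in naive and 44.2, 54.3 and 88.8 in SOHU libraries. The groups did not overlap, and the mean went from 128 ± 6.69 to 62.4 ± 23.3 CPM (SD, n = 3 each), a 2.05-fold fall (-1.04, SE 0.23, edgeR adjusted p = 0.0216). Kcnc4 (Kv3.4; -0.86) and Kcnc2 (Kv3.2; -0.73) were also apart between the groups but missed the threshold, with edgeR adjusted p-values of 0.0586 and 0.112. Over the 6 omissions the log2 fold change of Kcnc1 lay between -1.36 and -0.85, and it was past the threshold in 2 of them.

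Promoters of members, whether past the threshold or not, were read for shared letters, and a link to the falls was not tested. RefSeq promoters (GRCm38.p6, from 250 bases before to 50 after a start) were matched by symbol for 29 of the 44 members. A gene counted when any of its promoters held the letters. The GC box GGGCGG, searched on both strands, was in 22 of the 29 (75.9%), against 65.5% of 12172 tested genes and 38.2% of all 27025 genes in the table. The CCAAT box CCAAT was in 10 of 29 (34.5%), against 42.4% and 41.1%. TTCAGCACC, the left part of the site of the neuronal gene repressor REST, was in 1, Kcnh6 (3.4%, against 0.6% and 0.4%). The median GC content was 65.3% for members and 60.3% for tested genes. The promoters printed are those of the 3 members past the threshold with the smallest p among those with a single start in the table. Capitals mark GC boxes (1 in Kcnd2 and 3 in Kcnc1) and the CCAAT box (1 in Kcng4). They lie at chr6:21215096-21215395 (plus strand), chr7:46396218-46396517 (plus strand) and chr8:119635631-119635930 (minus strand). A match describes these letters and is not evidence of binding.
Kcnd2: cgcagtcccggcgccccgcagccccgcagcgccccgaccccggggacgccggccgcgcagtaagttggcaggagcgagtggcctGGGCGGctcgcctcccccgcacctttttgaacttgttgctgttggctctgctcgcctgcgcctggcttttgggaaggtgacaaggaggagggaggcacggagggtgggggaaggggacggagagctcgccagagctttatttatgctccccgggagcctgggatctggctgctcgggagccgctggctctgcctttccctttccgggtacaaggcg
Kcnc1: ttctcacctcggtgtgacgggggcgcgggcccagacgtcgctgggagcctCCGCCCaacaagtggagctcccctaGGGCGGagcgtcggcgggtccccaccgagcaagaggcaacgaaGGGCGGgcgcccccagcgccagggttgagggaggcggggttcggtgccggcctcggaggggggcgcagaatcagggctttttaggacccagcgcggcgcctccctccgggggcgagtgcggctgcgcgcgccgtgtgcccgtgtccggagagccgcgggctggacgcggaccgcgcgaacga
Kcng4: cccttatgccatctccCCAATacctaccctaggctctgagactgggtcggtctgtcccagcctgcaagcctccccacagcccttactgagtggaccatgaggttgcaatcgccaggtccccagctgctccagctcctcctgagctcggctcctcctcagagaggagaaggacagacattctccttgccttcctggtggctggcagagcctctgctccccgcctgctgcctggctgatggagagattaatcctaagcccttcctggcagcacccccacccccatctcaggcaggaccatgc

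Kv2 channels carry the slow delayed rectifier current and cluster on the cell body. Kcnb2 (Kv2.2) had 20.98, 16.7 and 14.3 CPM in naive and 6.86, 6.95 and 15.5 in SOHU libraries. SOHU replicate 3 lay within the naive range, so the groups overlapped (-0.82, SE 0.32, edgeR adjusted p = 0.113). Over the 6 omissions its log2 fold change lay between -1.31 and -0.62.

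Among the 8 genes of the modifier subunits Kv5, Kv6, Kv8 and Kv9, 3 fell. Kcng4 (Kv6.4; ENSMUSG00000045246.11, mm10 chromosome 8, 119623854 to 119635680, minus strand), whose promoter holds the CCAAT box shown above, had 31.5, 21.7 and 24.5 CPM in naive and 12.8, 16.1 and 14.6 in SOHU libraries. SOHU replicate 2 and not replicate 3 was the highest of its group, and the fall was 1.79-fold (-0.84, SE 0.19, edgeR adjusted p = 0.0224). Kcns2 (Kv9.2) had 18.2, 13.3 and 14.7 CPM in naive and 6.56, 6.28 and 10.6 in SOHU libraries. It fell 1.97-fold without overlap (edgeR adjusted p = 0.0319). Kcng2 (Kv6.2) had 16.3, 8.42 and 9.11 CPM in naive and 4.69, 5.56 and 5.85 in SOHU libraries. It fell 2.10-fold (edgeR adjusted p = 0.0347), and naive replicate 1 was far above the other naive libraries. When that library was left out its log2 fold change went from -1.07 to -0.72. Kcns3 (Kv9.3), Kcnf1 (Kv5.1), Kcng1 (Kv6.1) and Kcns1 (Kv9.1) had log2 fold changes of -1.27, -0.95, -0.91 and -0.62, with edgeR adjusted p-values of 0.0926, 0.0595, 0.326 and 0.458. Leaving out each naive replicate left 0, 1 and 0 of the 8 past the threshold in edgeR (4, 5 and 5 at an unadjusted p under 0.05), and each SOHU replicate 1, 0 and 4 (6, 4 and 5).

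Kcnv2 was the member of this subfamily with a log2 fold change above 0. It encodes Kv8.2, which joins Kv2 subunits in rod and cone photoreceptors. Kcnv2 (ENSMUSG00000047298.3, mm10 chromosome 19, 27322588 to 27337179, plus strand), the highest of the subfamily per kb, had 40.6, 49.1 and 46.6 CPM in naive and 67.9, 42.8 and 36.4 in SOHU libraries. The groups overlapped, with the highest and the lowest value both in SOHU (0.11, SE 0.22, edgeR adjusted p = 0.772, 95% interval -0.38 to 0.60). It was -0.20 when SOHU replicate 1 was left out. Of the rod and cone markers 0 of 15 and 0 of 11 passed in edgeR and none in limma-voom; 1 and 2 had an unadjusted p under 0.05, and DESeq2 called 1 in each list. Their medians were 0.050 and -0.013. The rod marker share was 0.727, 0.699 and 0.855% of the counts in naive and 0.959, 0.683 and 0.732% in SOHU libraries. The share and Kcnv2 were both highest in SOHU replicate 1, and a relation between them was not tested. Among naive libraries the share was highest in replicate 3 and Kcnv2 in replicate 2. Among SOHU libraries the share was lowest in replicate 2 and Kcnv2 in replicate 3. Kcnv2 made up 26.3 to 39.6% of the subfamily's sum per kb in naive and 40.9 to 59.9% in SOHU libraries, a shift that was not tested.

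Kv7 channels open below the spike threshold and carry the M-current, which damps excitability. Kcnq3 (Kv7.3) had 21.5, 14.4 and 15.1 CPM in naive and 6.81, 9.60 and 11.9 in SOHU libraries. It fell 1.81-fold without overlap, at the edge of the threshold (-0.85, SE 0.25, edgeR adjusted p = 0.0498). Over the 6 omissions its log2 fold change lay between -1.04 and -0.66, and it was past the threshold in 1 of them. Kcnq5 (Kv7.5) overlapped between the groups (-0.48, SE 0.73, edgeR adjusted p = 0.697).

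The Kv10 to Kv12 genes (Kcnh, the eag, erg and elk channels) gave 0 of 6 calls in edgeR, with 4 lower at an unadjusted p under 0.05, 2 called by limma-voom and 3 by DESeq2. Kcnh2 (Kv11.1, an erg channel; ENSMUSG00000038319.14, mm10 chromosome 5, 24319589 to 24351604, minus strand) had 94.2, 82.3 and 94.3 CPM in naive and 50.6, 48.5 and 77.2 in SOHU libraries. The groups were apart (-0.62, SE 0.19, edgeR adjusted p = 0.0554). Kcnh1 (Kv10.1), Kcnh5 (Kv10.2) and Kcnh7 (Kv11.3) did not overlap either, with log2 fold changes of -0.90, -0.59 and -0.61. Kcnh8 (Kv12.1; -0.47) and Kcnh6 (Kv11.2; -0.17) overlapped. Exons of Kcnh7 share 696 bases with Gca on the opposite strand, whose reads equal 96.7% of its own, so the Kcnh7 value is uncertain. When SOHU replicate 3 was left out, edgeR called 4 of the 6.

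The HCN genes Hcn2, Hcn3 and Hcn4 missed the threshold in edgeR and in limma-voom, although each lay apart between the groups and DESeq2 called each of them lower. Hcn2 (ENSMUSG00000020331.9, mm10 chromosome 10, 79716634 to 79736108, plus strand), the highest per kb, had 25.6, 23.03 and 27.9 CPM in naive and 13.5, 11.1 and 21.9 in SOHU libraries. SOHU replicate 3 nearly reached the naive range (-0.72, SE 0.24, edgeR adjusted p = 0.0755). Hcn3 had 28.2, 23.5 and 23.1 CPM in naive and 9.97, 9.87 and 21.8 in SOHU libraries. The same SOHU library was again the highest of its group (-0.84, SE 0.30, edgeR adjusted p = 0.0842). Hcn4, the slow isoform of cardiac pacemaker cells, had 11.01, 9.37 and 10.6 CPM in naive and 2.12, 5.34 and 8.37 in SOHU libraries. Its SOHU libraries varied more relative to their mean than those of Hcn2 and Hcn3 (-0.97, SE 0.39, edgeR adjusted p = 0.129). When SOHU replicate 3 was left out, all 3 passed in edgeR, with log2 fold changes of -1.03, -1.31 and -1.46.

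**Figure D4:**
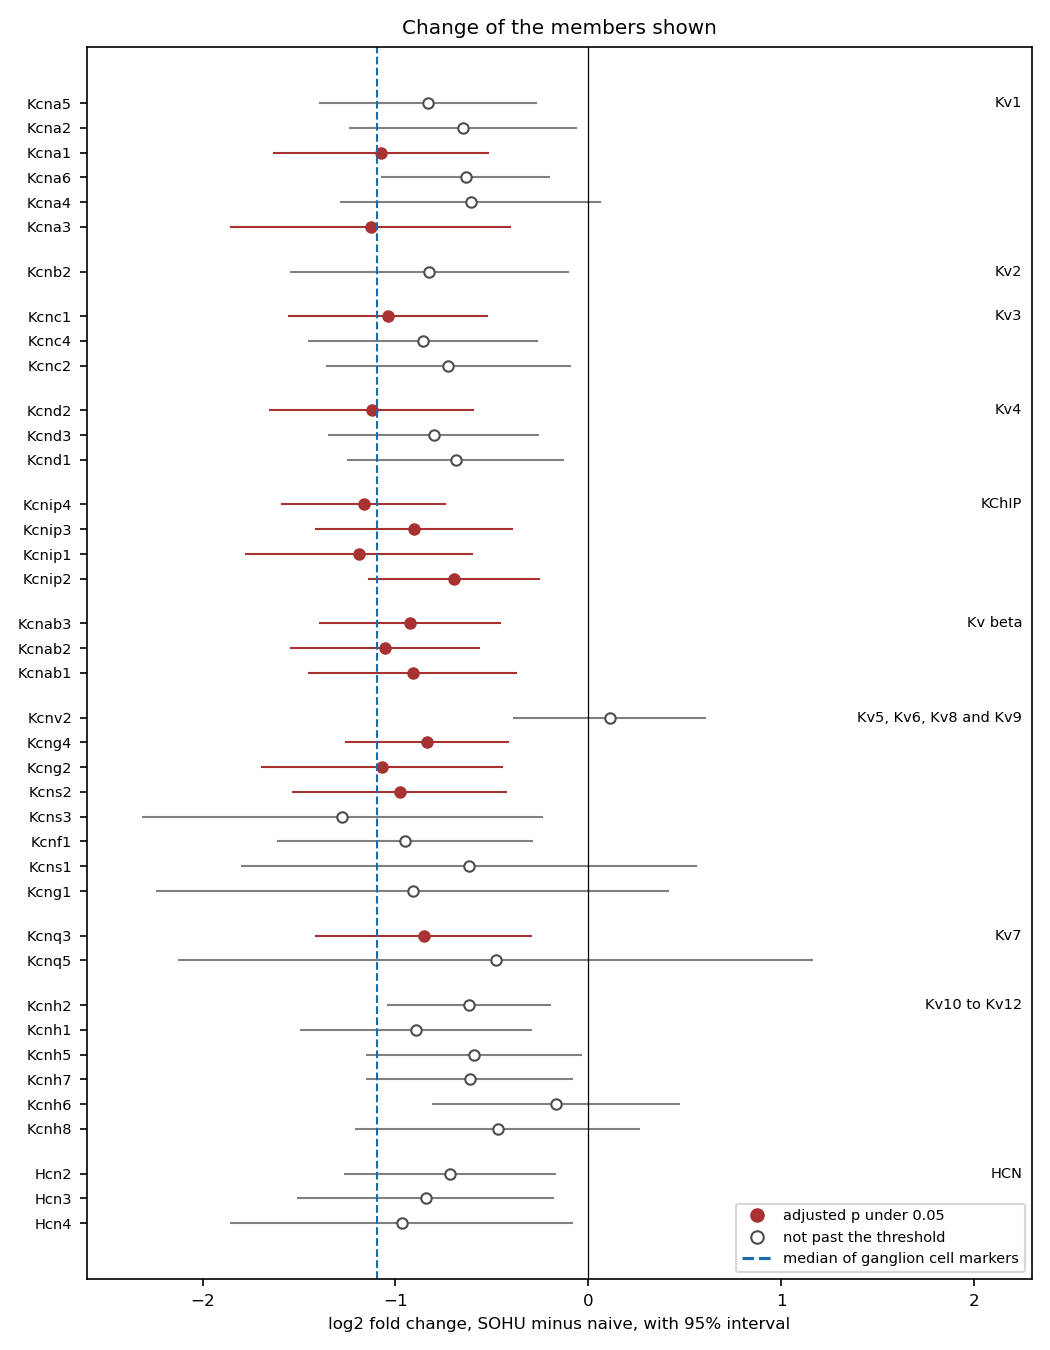
Log2 fold change of 39 of the 44 members, SOHU minus naive, with its 95% interval from edgeR (TMM scaling), and members past the threshold marked by colour. The dashed line is the ganglion cell marker median (-1.10). Of the members shown, Kcnv2 (0.11) lies above 0 in this scaling, and with scaling to those markers, which moved the median of all genes to 1.08, 42 of all 44 lay below that median.

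Most other potassium channel genes had log2 fold changes below 0, and calls went in both directions. Of 31 tested, from the inward rectifier, K2P, calcium- and sodium-activated and Kcne families, 6 fell and 3 rose. Over all genes tested 5.93% were lower and 8.02% higher. The median log2 fold change was -0.65, and 26 of the 31 were below 0. The groups' CPM did not overlap in 16 with SOHU lower and 4 with SOHU higher (19.7% and 19.3% over all genes). The K2P genes Kcnk12 and Kcnk4 fell 2.40-fold and 2.09-fold, and the inward rectifier genes Kcnj12, Kcnj6 and Kcnj9 fell 2.03-fold, 1.93-fold and 1.71-fold. Kcnma1, the large-conductance calcium-activated channel, fell 1.67-fold. Kcnj10, the inward rectifier of Müller glia and itself on the glial marker list, rose 2.46-fold (1.30, SE 0.15, edgeR adjusted p = 0.00858). The Kcne subunit gene Kcne1l rose 3.48-fold and the K2P gene Kcnk1 1.44-fold. Leaving out each naive replicate left 0, 3 and 0 of the 31 or 32 then tested past the threshold in edgeR, and each SOHU replicate 7, 2 and 17. At an unadjusted p under 0.05, 11, 15 and 14 were lower and 3, 3 and 4 higher in the omissions of naive replicates 1 to 3.

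Of 26 tested genes for proteins that bind, cluster or traffic these channels, 10 fell and 0 rose in edgeR (1 higher at an unadjusted p under 0.05, 1 in DESeq2 and 0 in limma-voom), and the median log2 fold change was -0.42. Among all genes tested 5.93% were lower and 8.02% higher. Kcne2 is in this list, among the other potassium channels and among the cone markers, so these lists are not fully separate. Dpp10, an ancillary subunit of Kv4 channels, had 20.02, 15.4 and 18.4 CPM in naive and 6.11, 7.98 and 8.86 in SOHU libraries. It fell 2.35-fold without overlap (-1.23, SE 0.20, edgeR adjusted p = 0.0119). Epb41l3, a cytoskeletal linker beside the node of Ranvier, fell 2.20-fold, and the genes of the secreted proteins Lgi2 and Lgi3 fell 2.22-fold and 1.84-fold. The scaffold gene Dlg2 fell 1.80-fold and Sptbn4, a spectrin of initial segments and nodes, 1.79-fold. In edgeR, omitting each naive replicate left 0, 3 and 0 partner genes past the threshold (12, 13 and 15 lower at an unadjusted p under 0.05), and each SOHU replicate 8, 2 and 13. Pex5l, the HCN ancillary subunit gene, named after its values were seen, had 44.7, 49.2 and 48.3 CPM in naive and 59.04, 47.1 and 39.4 in SOHU libraries (0.033, SE 0.17, edgeR adjusted p = 0.912).

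**Figure D5:**
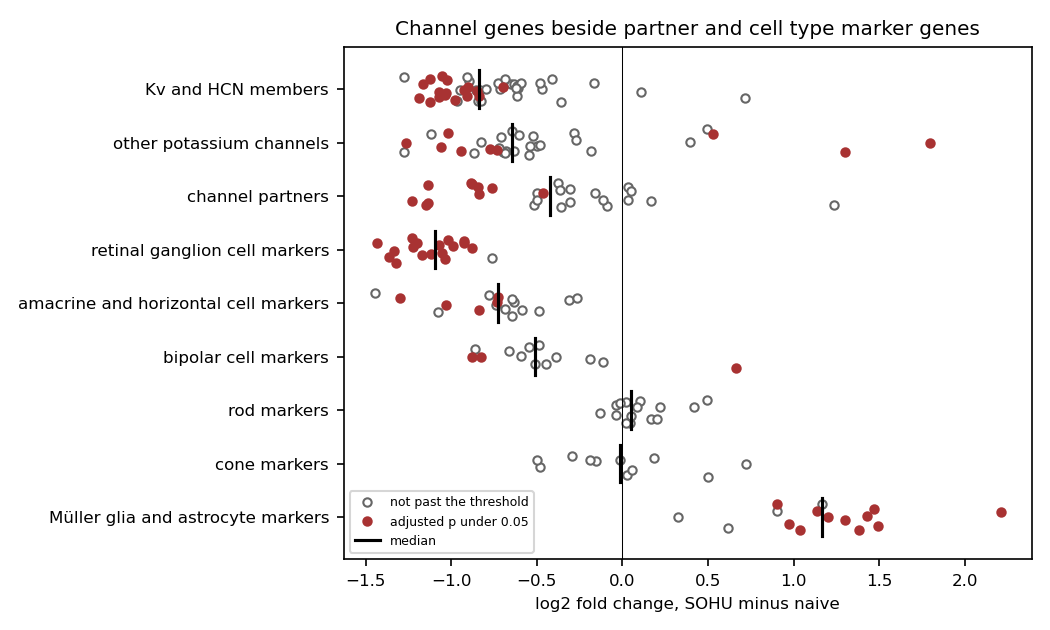
Log2 fold change, SOHU minus naive (TMM scaling), of each tested gene (points) in the members and in the lists of partner and marker genes, with genes past the threshold coloured and medians as bars. The members' median (-0.84) lies between those of the amacrine and horizontal cell markers (-0.73) and the ganglion cell markers (-1.10). The bipolar cell marker median is -0.51, with 12 of 13 genes below 0 (past the threshold, 2 lower and 1 higher). The rod and cone medians lie near 0.

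Scaling the libraries to the ganglion cell markers in place of TMM moved the middle of all log2 fold changes to 1.08, with 12253 genes higher and 2 lower. The members' median was then 0.16, which is -0.92 relative to that shift, and 42 of 44 lay below the shift and 9 below 0. In edgeR 0 members were lower (0 at an unadjusted p under 0.05) and 4 higher. Among the latter were Kcnv2 at 1.21 (SE 0.32, edgeR adjusted p = 0.000656), above the shift of all genes, and Kcnh6 at 0.85 (SE 0.40, edgeR adjusted p = 0.0484), below it. On the same scale Kcnip4 was at -0.093 (95% interval -0.68 to 0.50), Kcnc1 at -0.032 (95% interval -0.64 to 0.57) and Kcnd2 at -0.084 (95% interval -0.73 to 0.57). With these libraries a difference from the ganglion cell markers within those intervals was not detectable. With TMM scaling 5 members had a log2 fold change below the marker median, namely Kcns3, Kcnip1, Kcnip4, Kcna3 and Kcnd2.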

How the data were processed

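The deposited files hold counts: whole reads per gene, not normalized by the authors, for 6 mouse retina libraries. The tools named per the submitters' processing notes are featureCounts, HISAT, HISAT2, Trim Galore, MultiQC and bcl2fastq 2.17, with build mm10. Their order and settings, the annotation release and the use of strand were not given in the sources used here, so overlapping genes may share reads. GENCODE M21 gave a symbol to 55154 of 55335 identifiers.

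Genes passing filterByExpr were scaled by TMM (factors 0.943 to 1.039) and compared with edgeR 4.0.16 (R 4.3.3; robust quasi-likelihood, group as the only term). The alternatives were limma 3.58.1 (voom), DESeq2 1.42.0, other filters and scalings, a replicate block and left-out libraries. The code was tested on simulated counts. The permutation test used log2 of CPM + 0.5. Replicates of a group differed beyond sampling noise (chi-square per degree of freedom 13.8 to 87.9). Members and lists were chosen with earlier results of these data known. Values in every library are given for the highest member per kb in each subfamily, the Hcn genes and members past the threshold, except that some members are not reported here by name. Of the other lists, up to 6 genes by p, and those past the threshold where 6 or fewer on a side, are named, Dpp10 with values in every library. Kcna2, Kcnb2 and Pex5l were added after their values were seen, and Kcne2 is named only as a gene shared by lists.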

Additional observations from a re-analysis of the deposited data

How the results depend on the processing

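Members past the threshold numbered 18 with RLE factors, 18 at 1 CPM or more in 3 libraries, 24 in limma-voom, 29 without a filter and 33 in DESeq2, against 17, and their median stayed below 0 in each. DESeq2, without the low-count filter, called 16 of 44 other potassium channels, against 9 of 31. The labels do not pair the libraries, and same-numbered libraries deviated together with correlations of 0.163, 0.251 and 0.00399. With a replicate block edgeR called 18 members, 14 of them shared with the 17, and 2070 of all genes. Under the block Kcna3, Kcnq3 and Kcng2 missed the threshold (adjusted p = 0.0654, 0.0795 and 0.0588), and Hcn2, Kcna5, Kcnh2 and Kcns3 passed (adjusted p = 0.0437, 0.0401, 0.0429 and 0.0408).

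Leaving out 1 library in edgeR gave 0 to 3896 calls over all genes, 0 to 32 members, 0 to 17 other potassium channels and 0 to 13 partners. The same omissions in limma-voom and DESeq2 were chosen after seeing the data. Without naive replicates 1 to 3 and SOHU replicates 1 to 3, in that order, limma-voom called 0, 950, 0, 2197, 0, 4007 of all genes, 0, 8, 0, 12, 0, 32 members, 0, 4, 0, 7, 0, 17 other potassium channels and 0, 3, 0, 7, 0, 14 partners. DESeq2 called 1765, 2659, 2182, 3172, 2469, 4486 of all genes, 15, 23, 20, 25, 15, 38 members, 8, 11, 8, 12, 11, 20 other potassium channels and 5, 9, 10, 10, 10, 16 partners. Of the 38 members that DESeq2 called without SOHU replicate 3, 37 were lower and 1 was higher. Members whose sign turned in an edgeR omission were Kcnh6 (-0.43 to 0.021), Kcnq5 (-1.65 to 0.10) and Kcnv2 (-0.20 to 0.30), and the cause was not tested.

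Scaling to the ganglion cell markers called 12255 of all genes and 4 members and took the members' median to 0.16. By its construction, which raised the median of all genes by about as much, these log2 fold changes, among others, became positive: Hcn2 0.29, Hcn3 0.15, Hcn4 0.010, Kcna2 0.42, Kcna4 0.41, Kcna5 0.13, Kcna6 0.40, Kcnab1 0.063, Kcnab3 0.14, Kcnb2 0.17, Kcnc2 0.31, Kcnc4 0.15, Kcnd1 0.37, Kcnd3 0.20, Kcnf1 0.027, Kcng1 0.12, Kcng2 0.052, Kcng4 0.26, Kcnh1 0.085, Kcnh2 0.41, Kcnh5 0.40, Kcnh6 0.85, Kcnh7 0.43, Kcnh8 0.53, Kcnip2 0.34, Kcnip3 0.10, Kcnq3 0.21, Kcnq5 0.78, Kcns1 0.54 and Kcns2 0.064, and outside the members Adam22 0.58, Dlg2 0.19, Dpp6 0.13, Kcnj12 0.030, Kcnj6 0.087, Kcnj9 0.25, Kcnma1 0.27, Lgi1 0.29, Lgi3 0.22 and Sptbn4 0.22. Kcng1 and Kcnq5 had as few as 4 and 5 reads in a library, and counting error was not separated there from the spread between libraries.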
